A study of Mus musculus with 18 samples.

Results

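The genes described here are 9 transcription factors of the enteroendocrine lineage, namely Neurog3, Neurod1, Pax4, Insm1, Pax6, Rfx6, Nkx2-2, Isl1 and Glis3, picked by gene symbol from the 55335 genes of a counts table. They were read in RNA from small intestinal crypts of adult mice. KO mice carried floxed Prmt1 alleles and Vil-CreERT2, a tamoxifen-activated Cre driven by the villin promoter and so restricted to intestinal epithelium. WT littermates carried the floxed alleles without the Cre, and mice of both genotypes received tamoxifen. Crypts were collected on day 2, 7 or 14 after the first injection, with 3 KO and 3 WT mice per day, 1 library per mouse and 18 libraries in 6 groups. The day 2 mice were collected before the injections were complete, whereas day 7 and day 14 mice had received the full course. Crypt preparations hold stem, progenitor, Paneth and other epithelial cells, and enteroendocrine cells are a rare class among them.

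Enteroendocrine cells are the hormone-secreting cells of the gut epithelium, and like goblet, Paneth and tuft cells they arise from crypt progenitors. Commitment begins when a progenitor transiently expresses Neurog3, a basic helix-loop-helix factor without which the lineage does not form. In a simplified textbook order, Neurog3 is followed by factors such as Neurod1, Pax4 and Insm1. Factors such as Pax6, Rfx6, Nkx2-2 and Isl1 are placed after them and shape which hormone a cell makes. Neurog3, Neurod1, Pax4 and Insm1 are called early factors below, and Pax6, Rfx6, Nkx2-2 and Isl1 later factors. This split was not tested here, and factors of both classes can be present in the same cells. Glis3, a zinc finger factor best known from pancreatic beta cells, was put in neither class. The study itself named Neurog3, Neurod1, Pax4, Insm1, Pax6, Rfx6 and Glis3 as raised in the same day 14 libraries, so day 14 is no independent evidence of their direction. The day 2 and day 7 libraries come from other mice, and Nkx2-2 and Isl1 were not named.

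Library totals ran from 12844642 to 31493484 counts. Levels are given as CPM, the count scaled to a common library size after TMM normalization. All 9 factors passed the filter on low counts that left 21349 genes for testing. They were rare transcripts. The lowest count was 8, for Pax4, and the highest was 216, reached by Insm1 and by Rfx6, so that counting error alone is a sizeable part of the spread of Pax4.

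Prmt1, the deleted gene, separated the genotypes on every day. On day 2 it stood at 15.8, 13.1 and 14.3 CPM in the KO libraries and at 27.1, 26.5 and 26.1 CPM in the WT libraries. On day 7 the KO libraries held 13.6, 17.4 and 16.4 CPM against 22.3, 25.9 and 23.1 CPM in WT. On day 14 the values were 16.1, 14.95 and 15.1 CPM in KO and 25.2, 30.6 and 20.2 CPM in WT. Each KO library lay below each WT library of its day, and none contradicted its label. In edgeR (quasi-likelihood F test, p adjusted after Benjamini and Hochberg over all tested genes) the log2 fold changes were -0.89 ± 0.14 (SE) on day 2 (adjusted p = 0.0264), -0.59 ± 0.14 on day 7 (adjusted p = 0.00675) and -0.72 ± 0.14 on day 14 (adjusted p = 0.00329). Where the remaining Prmt1 counts come from was not tested. The day 2 call was lost when any 1 of its 6 libraries was left out (adjusted p between 0.0816 and 0.183 in edgeR), and the day 7 call without KO replicate 1 (adjusted p = 0.0655 in edgeR), with the direction unchanged. The day 2 call was also lost with only the compared groups in the fit (adjusted p = 0.0939 in edgeR) and with the replicate number as a block (0.0531 in edgeR).

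On day 2 no enteroendocrine factor passed the test between KO and WT crypts. Of the 9, edgeR called 0, where 0.0281% of all tested genes were called higher in KO and 0.00468% lower. DESeq2 called 0 as well, where it called 0.0609% of the genes to which it gave an adjusted p. An unadjusted p under 0.05 in edgeR was found for 1 of 9 factors and for 3.33% of all tested genes, in either direction. Their median log2 fold change was 0.06, against -0.0048 over all tested genes, with 5 of 9 above 0. No factor had all 3 KO libraries above all 3 WT libraries, an arrangement found for 4.30% of tested genes.

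The single factor below that unadjusted threshold on day 2 was Neurod1, which acts directly downstream of Neurog3. Its level was 2.93, 2.45 and 3.88 CPM in KO and 4.14, 4.003 and 5.16 CPM in WT libraries. Every KO library was lower than every WT library, but the log2 fold change of -0.51 ± 0.21 did not pass the edgeR test (adjusted p = 0.999). The WT libraries of day 2 were themselves high for this gene, since WT crypts of day 7 held 2.99, 2.88 and 2.93 CPM and those of day 14 held 3.02, 3.16 and 3.06 CPM. Neurog3 stood at 2.93, 2.85 and 4.10 CPM in KO and 2.38, 2.62 and 3.19 CPM in WT on day 2, and these ranges overlapped.

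On day 7 each of the early factors was higher in KO crypts. Together with Pax6 they made 5 of 9 factors called higher by edgeR, where 7.11% of all tested genes were called higher and 10.2% lower. No factor was called lower. The median log2 fold change of the 9 was 0.85, against 0.02 over all tested genes. In 8 of 9 factors, all but Nkx2-2, every KO library exceeded every WT library, as it did for 15.9% of tested genes. In bulk crypt RNA, a change in the number of enteroendocrine cells and a change in the RNA of each gene per cell cannot be told apart.

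Neurog3, the factor that commits progenitors to the lineage, reached 5.25, 7.16 and 5.89 CPM in the KO libraries of day 7 against 2.698, 3.19 and 3.07 CPM in WT. The lowest KO library was above the highest WT library by more than the whole WT range. The log2 fold change was 1.04 ± 0.23 (SE; adjusted p = 0.00356 in edgeR). Neurod1 stood at 7.43, 5.26 and 7.64 CPM in KO and 2.99, 2.88 and 2.93 CPM in WT. This gave a log2 fold change of 1.20 ± 0.21 (adjusted p = 0.000567 in edgeR). The 3 WT libraries were almost level for Neurod1, and the KO libraries were more spread.

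Insm1, a zinc finger repressor needed for endocrine differentiation, showed 8.27, 7.58 and 6.59 CPM in KO and 3.45, 4.22 and 3.33 CPM in WT on day 7. Its log2 fold change was 1.04 ± 0.22 (adjusted p = 0.00316 in edgeR). Pax4, a paired-box repressor of the early endocrine progenitor, stood at 1.42, 1.79 and 1.83 CPM in KO and 1.01, 0.895 and 0.876 CPM in WT. The Pax4 groups did not overlap, but these levels rest on 14 to 51 counts per library. Its log2 fold change was 0.85 ± 0.27 (adjusted p = 0.0321 in edgeR). That call did not survive leaving out KO replicate 2 or 3 or any WT replicate of day 7 (adjusted p between 0.0664 and 0.0962 in edgeR; 0.0422 without KO replicate 1).

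Among the later factors edgeR called Pax6 alone on day 7. Pax6, which supports hormone gene expression in mature endocrine cells, stood at 5.96, 5.05 and 5.89 CPM in KO and 2.59, 2.30 and 2.85 CPM in WT. The groups were well apart, and the log2 fold change was 1.12 ± 0.23 (adjusted p = 0.00206 in edgeR). Rfx6, a winged-helix factor of the endocrine lineage, stood at 6.67, 7.58 and 8.60 CPM in KO and 4.71, 5.94 and 4.86 CPM in WT. It narrowly missed the threshold, at a log2 fold change of 0.57 ± 0.20 (adjusted p = 0.0523 in edgeR).

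Isl1, a LIM homeodomain factor of hormone-producing cells, was similarly placed on day 7. It stood at 4.40, 4.11 and 4.02 CPM in KO and 2.55, 2.81 and 2.50 CPM in WT. This gave a log2 fold change of 0.67 ± 0.25 (adjusted p = 0.0755 in edgeR). Nkx2-2, a homeodomain factor of endocrine fate, overlapped between genotypes, at 3.42, 4.81 and 5.59 CPM in KO and 3.49, 3.83 and 2.85 CPM in WT. Its log2 fold change was 0.45 ± 0.26 (adjusted p = 0.263 in edgeR). Glis3 stood at 1.87, 2.35 and 2.49 CPM in KO and 1.66, 1.15 and 1.09 CPM in WT. This gave a log2 fold change of 0.76 ± 0.27 (adjusted p = 0.0554 in edgeR; 0.0432 without WT replicate 1). DESeq2's Wald test on the same genes called 8 of 9 factors on day 7, where it called 19.4% of genes in either direction. It added Rfx6, Isl1 and Glis3, so that the calls near the threshold depend on the test.

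On day 14 the KO libraries exceeded the WT libraries in all 9 factors, an arrangement found for 12.4% of tested genes. edgeR called 7 of 9 higher and none lower, where 3.23% of all tested genes were called higher and 4.69% lower. These 7 had been chosen by the study from the same libraries, so their count adds no independent evidence. The median log2 fold change of the 9 was 1.25, against 0.00223 over all tested genes.

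**Figure D1:**
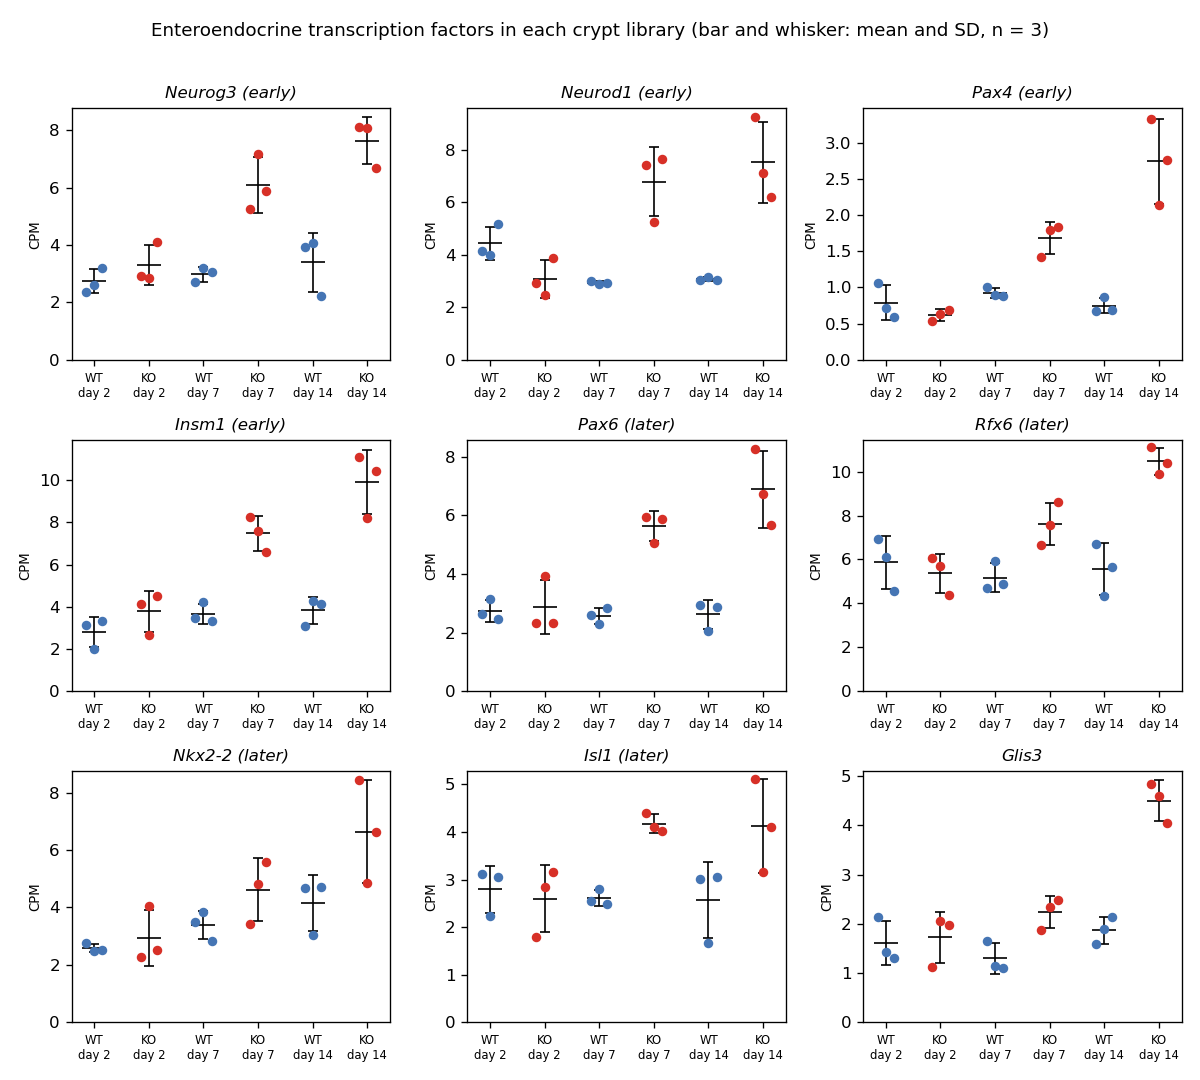
Level of each factor in CPM (vertical axes, starting at 0) in the 18 crypt libraries by genotype and day; points are single libraries (blue WT, red KO), and bars and whiskers are means and SDs with n = 3. KO points of day 14 lie above all WT points of that day in each panel, while the day 2 groups overlap for 8 of 9 factors.

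Pax4 had the highest day 14 fold change of the 9, at 3.32, 2.14 and 2.77 CPM in KO and 0.680, 0.869 and 0.695 CPM in WT. The lowest KO library held more than double the level of the highest WT library. The log2 fold change was 1.85 ± 0.27 (adjusted p = 0.00029 in edgeR). Neurog3 stood at 8.12, 8.07 and 6.68 CPM in KO and 3.93, 4.07 and 2.22 CPM in WT, for a log2 fold change of 1.17 ± 0.23 (adjusted p = 0.0028 in edgeR). Its KO libraries were clear of WT, although WT replicate 3 was lower than the other WT libraries.

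Neurod1 held 9.22, 7.13 and 6.21 CPM in KO and 3.02, 3.16 and 3.06 CPM in WT on day 14, for a log2 fold change of 1.29 ± 0.21 (adjusted p = 0.00069 in edgeR). Insm1 held 11.1, 8.20 and 10.5 CPM in KO and 3.10, 4.26 and 4.12 CPM in WT, for a log2 fold change of 1.36 ± 0.22 (adjusted p = 0.000706 in edgeR). Both genes were again separated by genotype without overlap.

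Of the later factors, Pax6 held 8.28, 6.75 and 5.67 CPM in KO and 2.95, 2.05 and 2.87 CPM in WT on day 14 (log2 fold change 1.41 ± 0.23, adjusted p = 0.000673 in edgeR). Rfx6 held 11.1, 9.90 and 10.4 CPM in KO and 6.72, 4.34 and 5.65 CPM in WT (log2 fold change 0.92 ± 0.20, adjusted p = 0.00573 in edgeR). The KO libraries of Rfx6 lay close together, above a more spread WT group. Glis3 held 4.85, 4.61 and 4.05 CPM in KO and 1.59, 1.90 and 2.13 CPM in WT (log2 fold change 1.25 ± 0.26, adjusted p = 0.00458 in edgeR).

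Nkx2-2 and Isl1 did not pass the test on day 14, although their KO libraries lay above WT. Nkx2-2 stood at 8.43, 4.86 and 6.61 CPM in KO and 4.68, 3.04 and 4.73 CPM in WT (log2 fold change 0.69 ± 0.26, adjusted p = 0.114 in edgeR). Isl1 stood at 5.11, 3.15 and 4.11 CPM in KO and 3.02, 1.66 and 3.06 CPM in WT (log2 fold change 0.70 ± 0.26, adjusted p = 0.112 in edgeR). In both, the lowest KO library was barely above the highest WT library.

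**Figure D2:**
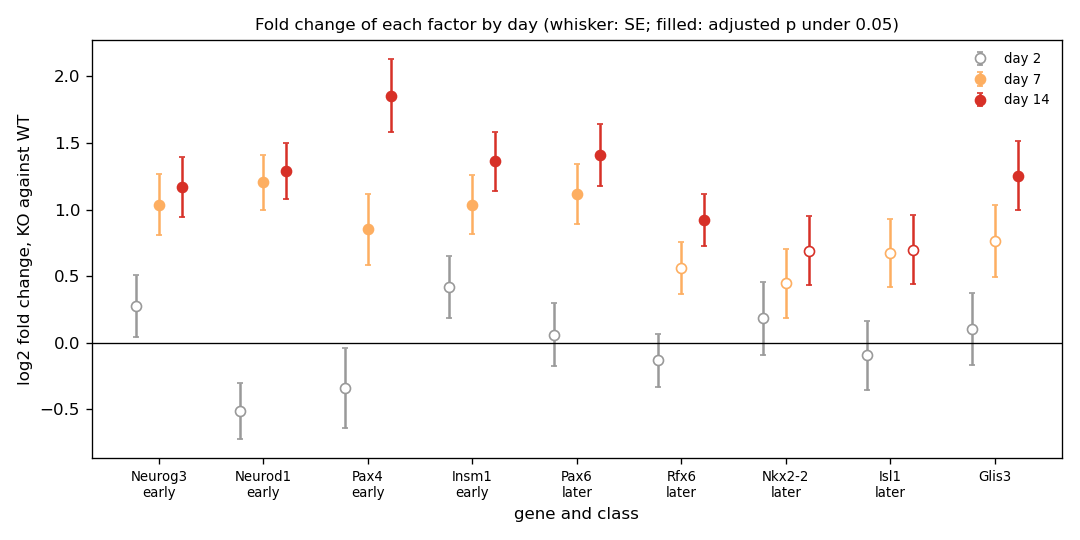
Log2 fold change of KO against WT (vertical axis) for each factor (horizontal axis) on day 2 (grey), day 7 (orange) and day 14 (red); whiskers are SEs, and filled points have an adjusted p under 0.05 in edgeR. Early factors lie between 0.85 and 1.85 on days 7 and 14, and later factors between 0.45 and 1.41.

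The median log2 fold change of the early factors was 1.04 on day 7 and 1.32 on day 14, and that of the later factors 0.62 and 0.81. The later factors thus lay -0.42 from the early ones on day 7 and -0.51 on day 14, while on day 2 the difference was 0.02. The same difference was taken in each library, as log2 CPM relative to the WT mean of the day. On day 7 it was -0.44, -0.40 and -0.25 in KO and 0.01, 0.11 and -0.04 in WT libraries, without overlap. On day 2 it was -0.0026, 0.45 and -0.36 in KO and 0.09, 0.13 and -0.33 in WT libraries, so that 1 day 2 library of each genotype lay within the range of the day 7 KO libraries. On day 14 it was -0.52, -0.66 and -0.42 in KO but 0.32, -0.58 and 0.24 in WT libraries, which overlapped through WT replicate 2. Between libraries of the same replicate number on day 14, which no label pairs, KO minus WT was -0.84, -0.08 and -0.65. Leaving that WT library out moved the day 14 difference to -0.76, and leaving out WT replicate 1 moved it to -0.33. These differences carry no test, since the factors of a class are not replicates. From the day 14 libraries the study named every early factor but only Pax6 and Rfx6 of the later ones. The day 14 difference is therefore not independent of that choice. The classes themselves were fixed with the results of these data known, so the day 7 difference is no independent evidence either. Pax6 was an exception among the later factors, with fold changes in the range of the early ones on both days.

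Whether the KO effect itself differed between days was tested factor by factor. For 1 of 9 factors, Neurod1, the effect on day 7 was called higher than on day 2, as for 1.33% of tested genes. The effect on day 14 was called higher than on day 2 for 2 of 9, Neurod1 and Pax4, and for 0.347% of tested genes. All 9 estimates were above 0 in both tests, with medians of 0.76 and 1.05. An unadjusted p under 0.05 in edgeR was found for 6 of 9 factors for day 7 and 8 of 9 for day 14. It was found for 3858 and 2549 of the 21349 tested genes, in either direction. For Neurod1 the difference in log2 fold change was 1.72 ± 0.30 from day 2 to day 7 (adjusted p = 0.00272 in edgeR) and 1.80 ± 0.30 from day 2 to day 14 (adjusted p = 0.00473 in edgeR). Each of these Neurod1 differences includes the WT level of day 2, which was above that of the later days. For Pax4 it was 2.19 ± 0.41 (adjusted p = 0.00987 in edgeR), on 8 to 26 counts per library on day 2. Leaving out KO replicate 2 of day 2 added Pax6, which brought the count of calls for day 7 to 2. The day 14 count rose to 3 through Pax6 (adjusted p = 0.0517 in the main fit) without KO replicate 2 of day 2 or KO replicate 3 of day 14, and through Rfx6 without WT replicate 3 of day 2. DESeq2 called 2 and 4 factors in these tests, where it called 6.57% and 2.48% of genes in either direction.

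No factor differed in KO effect between day 14 and day 7 in edgeR, where 0% of tested genes were called. DESeq2 called 0 too, with 0.00937% of genes. An unadjusted p under 0.05 was found for 1 of 9 factors, Pax4, and for 4.46% of tested genes. The medians of the 2 days can therefore be set side by side but are not shown to differ.

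Within KO mice, 5 of 9 factors were higher on day 7 than on day 2, where 7.21% of tested genes were called higher by edgeR, and these were the early factors and Pax6. Neurog3 lost that call without KO replicate 1 of day 2 (adjusted p = 0.0574 in edgeR) or KO replicate 2 of day 7 (0.0583 in edgeR), and Nkx2-2 was added without KO replicate 2 of day 2. By day 14, 8 of 9 were higher than on day 2, all but Isl1, where 5.54% of tested genes were called higher. Nkx2-2, not called against WT on either day, was among them, with a log2 fold change of 1.18 ± 0.26 (adjusted p = 0.00739 in edgeR). Its call was lost without KO replicate 1 of day 14 (adjusted p = 0.052 in edgeR). From day 7 to day 14 no factor was called in KO by edgeR, where 0.0187% of tested genes were called higher and 10 genes in either direction. An unadjusted p under 0.05 was found for 3 of 9 factors and for 9.27% of tested genes. Glis3 came nearest, at 1.01 ± 0.25 (adjusted p = 0.126 in edgeR), with all 3 day 14 libraries above all 3 of day 7. DESeq2 called 1 factor, Glis3, and 1.20% of genes.

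In WT mice no factor was called between days by edgeR or DESeq2. The tested genes called higher were 0.253% for day 7 against day 2, 0.735% for day 14 against day 2 and 0.0375% for day 14 against day 7. In either direction edgeR called 118, 343 and 17 of the 21349 tested genes. DESeq2 called 9.46%, 8.66% and 0.244% of genes in these comparisons, in either direction. At an unadjusted p under 0.05 there were 1, 2 and 0 of 9 factors, where 22.4%, 20.01% and 5.18% of all tested genes lay under it in either direction. The factors were Neurod1, at a log2 fold change of -0.60 ± 0.21 on day 7 and -0.53 ± 0.21 on day 14 against day 2, and Nkx2-2, at 0.67 ± 0.27 on day 14 against day 2. The mice of each day are different animals. The day 2 mice had received fewer injections, so in comparisons with day 2 time and dosing cannot be told apart.

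To compare levels between factors, CPM were divided by exon length in kilobases. On this scale Neurog3 had the highest mean in each of the 6 groups, from 1.63 ± 0.250 CPM per kb (SD, n = 3) in WT crypts of day 2 to 4.55 ± 0.489 in KO crypts of day 14. Its libraries overlapped those of the next factor in WT crypts of day 2 (Neurod1) and of day 14 (Nkx2-2). In WT crypts of day 2 the means were 1.632 for Neurog3 and 1.625 for Neurod1 CPM per kb, so their order is not settled. Neurog3 also shares exon bases with the more highly counted Fam241b, and the part of shared reads in its rank was not tested. In KO crypts of day 14 the order below it was Insm1 (3.20 ± 0.494 CPM per kb), Neurod1 (2.76 ± 0.567), Rfx6 (2.61 ± 0.153), Nkx2-2 (2.31 ± 0.622), Pax4 (1.90 ± 0.407), Isl1 (1.04 ± 0.247), Pax6 (0.590 ± 0.112) and Glis3 (0.509 ± 0.0465). Neighbours from Insm1 to Pax4 overlapped in their library ranges, as did Pax6 and Glis3, while Neurog3 lay above Insm1, and Isl1 between Pax4 and Pax6, without overlap. Pax6 and Glis3 were the lowest 2 in each group. Both have long annotated exon sets, 11694 and 8842 bases, which lowers their per-length level if the expressed transcript is shorter.

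The call counts of the gene lists below stand beside all tested genes, of which edgeR called 7.11% higher and 10.2% lower on day 7 and 3.23% higher and 4.69% lower on day 14. Of 16 other transcription factors linked to enteroendocrine cells, 15 were tested. On day 7 edgeR called 2 higher and 3 lower in KO, with a median log2 fold change of 0.36. The higher were Lmx1a (0.70), a factor of serotonin-producing enterochromaffin cells, and Etv1 (1.03). The lower were Foxa2 (-0.79), Mnx1 (-0.91) and Sox4 (-0.83), the last also expressed in crypt progenitors. On day 14 it called 5 higher and none lower, with a median of 0.47, namely Fev (1.91) and Lmx1a (1.42), both of enterochromaffin cells, Hmgn3 (1.15), Myt1 (1.06) and St18 (0.86). The study named Fev, Lmx1a and Hmgn3 from these day 14 libraries.

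Of 14 genes of secretory fate and Notch signalling, 13 were tested and edgeR called none higher on either day. Atoh1, which opens the secretory fate, had log2 fold changes of 0.24 and 0.37 on days 7 and 14 and was not called. Hes1, the Notch target that represses Atoh1, had -0.29 and -0.16. Sox9 was the one gene called lower, on day 7 (-0.73, adjusted p = 0.00367 in edgeR). The list medians were -0.19 and -0.01.

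Of 12 hormone, granule and serotonin genes of enteroendocrine cells, edgeR called 10 higher and 1 lower on day 7 and 9 higher and 1 lower on day 14, with median log2 fold changes of 1.18 and 1.19. Most were named by the study from the day 14 libraries. Ghrl, which encodes ghrelin, was the lower gene on both days (-0.67 and -0.90), and Sst, which encodes somatostatin, was not called on either (0.03 and 0.27). Their summed level was 759, 797 and 939 CPM in KO libraries of day 7, in rising order, and 354, 355 and 374 CPM in WT. On day 14 it was 876, 991 and 1033 CPM in KO and 323, 349 and 389 CPM in WT. Chgb was the most abundant of them in all 18 libraries.

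Markers of other crypt cells also differed between the genotypes. All 6 Paneth cell markers were called lower on day 7 and 1 on day 14. Their summed level, led by Lyz1, spanned 1402 to 3957 CPM in KO and 8953 to 14925 CPM in WT on day 7. On day 14 the groups were again apart, at 5466 to 7248 CPM in KO and 9164 to 20336 CPM in WT, with a list median log2 fold change of -1.19. Of 7 stem cell markers, led by Olfm4, 5 were lower on day 7 and 1 on day 14, with a sum of 493 to 1152 CPM in KO and 1781 to 2397 CPM in WT on day 7. On day 14 their sum was 1635 to 1936 CPM in KO and 2193 to 2409 CPM in WT, also without overlap. Of 7 goblet cell markers 3 were lower on day 7 and 1 on day 14. Their sum, led by Fcgbp, overlapped between genotypes on day 7. On day 14 it was 10778 to 12731 CPM in KO and 13221 to 13337 CPM in WT. Fcgbp alone held 5187, 6282 and 5232 CPM in KO and 6601, 8211 and 7976 CPM in WT on day 14. The goblet list median log2 fold changes were 0.05 on day 7 and -0.10 on day 14. Of 7 tested tuft cell markers 2 were lower on day 7 and 0 on day 14. The tuft sum was 29.9 to 66.9 CPM in KO and 73.98 to 83.6 CPM in WT on day 7, and overlapped on day 14. Of 7 enterocyte markers, led by Sis, 2 were higher and 1 lower on day 7, and 1 was higher on day 14, with list median log2 fold changes of 0.67 and 0.92. Their sum was 9838 to 15809 CPM in KO and 6308 to 9350 CPM in WT on day 7, and overlapped on day 14. No epithelial marker of 7 was called on either day. The part of these markers in the factors' values was not tested.

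Several of the 9 factors are also expressed in pancreatic islets. Of 8 pancreas markers Ins1 and Amy2a5 were at 0 in all 18 libraries and Ins2 in 16. Others were present at low counts, up to 39 for Ctrb1, and Iapp (2 to 21) and Cela2a (12 to 33) were at 0 in no library. On day 14 the 8 summed to 1.84, 3.85 and 8.03 CPM in KO and 3.70, 1.18 and 1.34 CPM in WT libraries. None of the 4 tested was called, and their median on day 14 was a log2 fold change of 0.89. The part of pancreatic RNA in the factors' values was not tested. The immune markers gave no call, and of 7 stromal markers Vim and Pecam1 were higher on day 7. Of 6 proliferation genes 1 was lower on day 14, when their sum was 821 to 962 CPM in KO and 1013 to 1226 CPM in WT.

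Among the other 21340 tested genes, those with the profile nearest to the mean of the 9 factors over the 18 libraries were Scn3a, Rnf169, Myt1, Sphkap, Slc8a1, Ggct, Hap1, Zkscan3, Mroh2a and Lmx1a. Likeness was the root mean square difference of centred log2 CPM, from 0.179 for Scn3a to 0.221 for Lmx1a. The factors themselves lay 0.228 (Pax6) to 0.306 (Insm1) from their own mean, which they help to set. The genes nearest to Neurog3 alone were Syt13, Tac1, Ttll7, Rnf169, Smim3, Ttr, Pde2a, Pnmal1, Rundc3a and Chga, at 0.251 to 0.314. Tac1 and Chga are enteroendocrine products.

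The factors lie on chromosomes 2, 6, 10, 13 and 19 of mm10, with Neurod1, Pax6, Insm1 and Nkx2-2 on chromosome 2. Reads were counted without strand and for each gene they touched, so overlapping genes share counts. Neurog3 (chr10:62133090-62134763) shares 273 exon bases, 16.3% of its exons, with Fam241b on the opposite strand, which held 105 to 311 counts. Nkx2-2 shares 278 bases, 9.67%, with the antisense Nkx2-2os at 11 to 41 counts, and Neurod1 shares 201 bases, 7.37%, with Cerkl at 15 to 66 counts. Between KO and WT the log2 fold changes of Fam241b were -0.10 on day 7 and 0.0034 on day 14, those of Cerkl 0.72 and 0.55, and those of Nkx2-2os 0.57 and 0.93, none of them called by edgeR. The part of shared reads in the levels of these 3 factors was not tested, and the share of exon bases does not bound it. The other 6 share no exon base with another gene.

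Promoter sequences from RefSeq (GRCm38.p6) were at hand for 7 of 9 factors, all but Pax4 and Insm1. Neurog3 and Neurod1 belong to the family that binds E-boxes, CANNTG, a motif that reads the same class on both strands. It occurs in 66.2% of 32851 promoters in the 250 bases before the start, and CAGATG or its reverse complement CATCTG, a form of CANNTG, in 14.4%. The sequences shown are Neurog3 and Pax6, called by edgeR on both days, and Isl1, called by edgeR on neither, with each CANNTG in capitals. Neurog3 (chr10:62132840-62133089, plus strand) lies upstream of the gene in an intron of Fam241b. Pax6 (chr2:105668646-105668895, plus strand, the first of 2 entries) lies upstream in an intron of Pax6os1. Isl1 (chr13:116309689-116309938, minus strand) lies upstream apart from 1 exon base.
Neurog3: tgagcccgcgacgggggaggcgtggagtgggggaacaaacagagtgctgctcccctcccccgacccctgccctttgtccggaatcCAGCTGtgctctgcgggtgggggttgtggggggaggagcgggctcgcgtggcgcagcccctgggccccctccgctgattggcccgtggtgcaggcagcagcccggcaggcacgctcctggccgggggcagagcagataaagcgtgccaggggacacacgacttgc
Pax6: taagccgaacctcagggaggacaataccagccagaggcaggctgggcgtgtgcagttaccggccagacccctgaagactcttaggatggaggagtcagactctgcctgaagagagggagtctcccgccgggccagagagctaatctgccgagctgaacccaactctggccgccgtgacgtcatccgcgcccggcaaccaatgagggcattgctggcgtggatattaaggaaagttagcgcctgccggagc
Isl1: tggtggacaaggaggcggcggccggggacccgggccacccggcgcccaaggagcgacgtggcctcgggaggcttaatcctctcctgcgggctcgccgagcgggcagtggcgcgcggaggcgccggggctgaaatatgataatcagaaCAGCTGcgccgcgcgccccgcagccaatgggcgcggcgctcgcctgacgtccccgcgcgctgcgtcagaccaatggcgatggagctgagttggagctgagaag
Neurog3 and Isl1 each held 1 match, CAGCTG, and this Pax6 window held none. Of the printed windows none held CAGATG or CATCTG. Among the 5 windows not printed, Nkx2-2, called by edgeR on neither day, held 3 matches (1 CATCTG and 1 CACTTG as well as 1 CACGTG), and the second Pax6 entry held 1, CAAATG. Neurod1 held 1 match, CATATG, Glis3 held 1, CAGCTG, and Rfx6 held none. Not all of these windows lie upstream of the annotated gene. That of Rfx6 lies in an Rfx6 intron, and the second of Pax6 lies wholly in a Pax6 exon. The Neurod1 window holds 115 bases of its own exon and 149 of Cerkl, and the Nkx2-2 window 53 bases of its own exon. A match is a description of the letters and not a bound site.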

How the data were processed

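RNA from small intestinal crypts was depleted of ribosomal RNA and sequenced in paired-end mode by the study. Per the file headers and the submitters' processing notes, the authors aligned reads to mm10 with STAR 2.7.3 and made the deposited counts per gene with featureCounts 1.6.4, without strand and counting a read for each gene it overlapped; HTSeq is also named in the notes, with no role. The header names GENCODE mouse release 23, whereas the study's methods name another release; the header was followed. The exon length per gene comes from the same table (other columns were annotation).

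Groups came from the sample titles. Counts were fitted with edgeR 4.0.16 (R 4.3.3, limma 3.58.1): 20 genes that the study found to differ between the sexes were removed, filterByExpr was applied by group, and TMM, 1 mean per group over 18 libraries, robust quasi-likelihood tests and Benjamini-Hochberg adjustment over 21349 genes were used, with a threshold of 0.05. The SE is the log2 fold change divided by the square root of its F. Sex and litter of single mice were not modelled. The code was tested on simulated counts. No replicate pair agreed within sampling noise (chi-square per degree of freedom at least 17.9). Named genes were the 9 factors, Prmt1, called genes of the lists of other enteroendocrine factors and of secretory fate genes, and the 10 most alike by root mean square difference of log2 CPM (prior count 2), for the mean and for Neurog3; other genes serve as examples. The members, the early and later classes and the lists were chosen with earlier results of these data known. Alternatives were DESeq2 1.42.0, other size factors, filters and gene sets, fits of the compared groups alone, a replicate block and each library left out. Total counts ran from 12844642 to 31493484 per library, where 1 count is worth 0.0351 to 0.0755 CPM. Figures were drawn with matplotlib 3.10.9 (Python 3.11.15). The enteric neuron and glia marker list is not reported here.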

Additional observations from a re-analysis of the deposited data

Results flagged for a closer look

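For 2 of 9 factors edgeR called the KO effect different between days, by a test of the difference itself. Of tested genes it called 1.33% higher for day 7 minus day 2 and 0.347% for day 14 minus day 2. All 9 estimates were above 0 in both comparisons. DESeq2 called 2 and 4 factors in these tests, where it called 6.57% and 2.48% of genes in either direction. For Neurod1 the log2 fold change of KO against WT was 1.72 ± 0.30 (SE) higher on day 7 than on day 2 (adjusted p = 0.00272 in edgeR) and 1.80 ± 0.30 higher on day 14 than on day 2 (adjusted p = 0.00473 in edgeR). Every KO library was lower than every WT library on day 2 and higher on days 7 and 14. These differences include the WT level of day 2, which was above that of the later days. For Pax4 it was 2.19 ± 0.41 higher on day 14 than on day 2 (adjusted p = 0.00987 in edgeR), with overlapping groups on day 2. Groups of 3 libraries were not searched for single libraries far from the rest.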

How the results depend on the processing

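The 5 calls of day 7 and the 7 of day 14 were recomputed under each alternative, and the direction of all 9 factors on both days was kept wherever a factor was tested. On day 7 DESeq2's Wald test called 8 factors and 19.4% of genes in either direction. It called 2 factors for the effect of day 7 minus day 2 (Neurod1 and Pax6) and 6.57% of genes. For day 14 minus day 2 it called 4 (Neurod1, Pax4, Pax6 and Rfx6) and 2.48% of genes. For KO day 14 against KO day 7 it called 1 (Glis3) and 1.20% of genes. Requiring a mean count of 50 left out Pax4 and Glis3 by construction, left 1 call for day 14 minus day 2, and gave no early and later medians. The day 14 minus day 2 count rose from 2 to 3, through Pax6, with DESeq2's size factors in edgeR and without the filter on low counts. With libraries left out in turn, that count ran from 2 to 3 (Pax6 without KO_d2 replicate 2 or KO_d14 replicate 3, Rfx6 without WT_d2 replicate 3), the count for day 7 minus day 2 ran from 1 to 2, and the later minus early difference of day 14 from -0.76 to -0.33. The cause was not tested.

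On day 2, where no factor was called, the sign of 5 factors turned when 1 library was left out, with log2 fold changes over the left-out libraries from -0.23 to 0.20 for Pax6, -0.292 to 0.00769 for Rfx6, -0.11 to 0.33 for Nkx2-2, -0.26 to 0.10 for Isl1 and -0.0407 to 0.36 for Glis3. Pax4 on day 7 also lost its call without the filter on low counts (adjusted p = 0.136 in edgeR) and with the compared groups alone (0.0682 in edgeR), in a range of 0.032 to 0.136 over the alternatives other than left-out libraries.

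No label ties libraries that share a replicate number. The correlation of their deviations ran from 0.0478 to 0.381 on day 2, from -0.159 to 0.206 on day 7 and from 0.159 to 0.227 on day 14. The KO library correlated best with its own number in 2, 1 and 3 of 3 cases. The main fit used no pairing. As a hint from the data, the numbers served as pairs in an alternative fit within day 14 and in the same-number differences of that day. With a replicate block within day 14, an alternative chosen after seeing the data, the counts remained 7 for day 14, 2 for day 14 minus day 2 and 0 for day 14 minus day 7, no call of a factor or of Prmt1 on day 14 changed, and the later minus early difference was -0.50. With the replicate number as a block over all days the factors called remained 0, 5 and 7 on days 2, 7 and 14, and the effect counts 1, 2 and 0; Prmt1 on day 2 then missed the threshold (adjusted p = 0.0531 in edgeR). Depth limits Pax4 most, whose counts began at 8.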
